A study of Mus musculus with 48 samples.

Results

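The genes described here are the potassium channel genes, taken as every row of the count table whose name begins with Kcn and that held at least 50 UMIs over all cells. UMIs are short random sequences that mark each captured RNA molecule before amplification, so that its copies count once. Of 86 such rows among 16510 genes, 74 were kept. Kcnj4 (51 UMIs) and Kcnj14 (64 UMIs) lay just inside the limit, and Kcns3 (48 UMIs) and Kcnd3os (41 UMIs) just outside it. Single cells of the mouse hypothalamus had been sequenced at E18.5, late in gestation, on a mixed B6:129S1 background. The control embryos carried the floxed Eed allele (Eed fl/fl), and the Eed-cKO embryos carried the same allele with Sox1-Cre (Eed fl/fl;Sox1-Cre/+). Eed encodes a subunit of polycomb repressor complex 2 (PRC2), which deposits the repressive mark H3K27me3. Sox1-Cre acts in the early neural plate, and the paper took non-neural cells as not targeted by it. The 22 control libraries came from 6 embryos (2 female, 4 male) and the 26 Eed-cKO libraries from 9 embryos (5 female, 4 male), and replicates are embryos.

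Potassium channels let potassium leave the cell, which sets the resting potential, ends the action potential and limits firing. Voltage-gated (Kv) channels are built from 4 pore subunits of a family such as Kv1, Kv2, Kv3, Kv4 or Kv7, together with auxiliary proteins. Inward rectifiers (Kir) include the channels opened by G proteins and those closed by ATP, the tandem pore channels (K2P) carry leak current, and further families open with intracellular calcium or sodium. By family, the 74 genes held 5 of Kv1, 2 of Kv2, 4 of Kv3, 3 of Kv4 and 4 of Kv7. There were 5 silent Kv subunits (which form channels only with other subunits) and 7 genes of the EAG, ELK and ERG group. A further 7 were calcium- or sodium-activated channels and their relatives, taken by the names Kcnma, Kcnn, Kcnt and Kcnu. The rest were 13 Kir, 9 K2P, 13 auxiliary subunits and 2 noncoding RNAs. Kcnq1ot1 and Kcnmb4os2, the noncoding RNAs, carry channel names from the genes they overlap.

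A cell was called a neuron when at least 3 of Stmn2, Tubb3, Snap25, Syt1, Elavl4 and Rbfox3 were detected. This gate held 5898 of 7186 control cells (82.1%, median 5210 UMIs per neuron) and 5224 of 6935 Eed-cKO cells (75.3%, median 4840 UMIs). UMIs of the neurons of each embryo were summed, which gave 4514289 to 6943612 UMIs per control embryo and 510215 to 5312989 per Eed-cKO embryo. Levels are given as CPM, a gene's UMIs per fixed total of the embryo's UMIs after TMM scaling, and since counting was near the 3′ end without a length correction, levels of different genes are not compared. In such sums, fewer cells that express a gene and less RNA per cell cannot be told apart. A library of control embryo 5 stood apart, with 1207 cells at a median of 2919 UMIs, where the next largest control library held 396 cells. In the table, 101 barcodes occurred in at least 2 libraries (203 of 14121 cells). No litter label held both genotypes, so litter and genotype cannot be told apart. Eed itself was at 27.3 to 32.5 CPM in control neurons and 17.7 to 27.7 CPM in Eed-cKO neurons (log2 fold change, log2FC, -0.41, with a standard error, SE, of 0.10, edgeR adjusted p = 0.00594), read from the end of the transcript, which does not include the floxed exons and so does not check the deletion.

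Markers of other cell types were also counted inside the neuron gate, and some moved with the genotype. Summed over 7 astrocyte markers, the level was 180 to 481 CPM in control embryos and 222 to 725 CPM in Eed-cKO embryos, and 4 of 7 tested markers were higher in Eed-cKO. For 7 leptomeningeal markers it was 11.8 to 142 CPM against 59.4 to 483 CPM, with 5 of 6 tested markers higher. For 7 ependymal or tanycyte markers it was 59.3 to 151 against 117 to 403 CPM (2 of 3 higher), for 8 pericyte or smooth muscle markers 7.0 to 35.5 against 14 to 92.3 CPM (3 of 4 higher), and for 4 pituitary markers 63.7 to 99.4 against 132 to 174 CPM (2 of 2 higher). For 6 cycling markers the sum was 4.91 to 41.1 CPM in control and 3.90 to 71.5 CPM in Eed-cKO (2 of 5 higher). Oligodendrocyte precursor markers (8.40 to 95.4 against 15.6 to 51.1 CPM), endothelial markers (7.21 to 68.5 against 6.42 to 53.0 CPM) and microglial markers (0.614 to 60.8 against 0.540 to 47.9 CPM) had no member past the threshold (0 of 4, 0 of 2 and none tested). Only Pitx1, of the pituitary list, was at 0 UMIs in control neurons. Of the 6 gate genes themselves 2 were lower in Eed-cKO, and their sum was 7004 to 7654 CPM in control and 6074 to 7060 CPM in Eed-cKO. Each genotype result below was therefore also computed after removing the neurons with 3 or more markers of another type (270 control and 463 Eed-cKO neurons), and the values that lost their call are given beside the gene. The removal did not make the genotypes equal. Astrocyte sums were then 143 to 170 CPM in control against 181 to 230 CPM in Eed-cKO, and leptomeningeal sums 2.67 to 10.6 against 10.2 to 47.4 CPM. Ependymal or tanycyte sums were 50.1 to 72.6 against 66.8 to 125 CPM, and pituitary sums 68.7 to 99.9 against 119 to 174 CPM. The part of such RNA in the calls that were kept was not tested.

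Outside the neuron gate, cells with at least 3 markers of a single other type gave levels in which several potassium channel genes stood far above their level in neurons. These are sums over all embryos of both genotypes, given as a description. Kcnj8, the pore of the ATP-sensitive channel of vessels, was at 2007 CPM (173 UMIs) in the 41 control and 20 Eed-cKO cells with pericyte or smooth muscle markers, against 1.52 CPM in neurons. Kcnj10, the glial inward rectifier that takes up potassium from the extracellular space, was at 216 CPM in astrocyte-marked cells (395 UMIs) and 3.46 CPM in neurons. In the same astrocyte-marked cells Kcne1l, an auxiliary subunit also called Kcne5, was at 466 CPM (854 UMIs), against 11.4 CPM in neurons. Thus the highest levels of all 3 genes were outside neurons.

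Kcnj2, a strong inward rectifier, was at 271 CPM in endothelial-marked cells (253 UMIs) and 6.03 CPM in neurons, and Kcnq1, a Kv7 pore subunit, at 47.2 CPM (44 UMIs) and 0.371 CPM. Kcne4, an auxiliary subunit, was at 311 CPM in leptomeningeal-marked cells (331 UMIs) and 0.773 CPM in neurons. Kcnk6, a K2P gene, was at 151 CPM in microglia-marked cells (29 UMIs) and 0.634 CPM in neurons. Of the genes with large neuronal counts, Kcnd2 was higher in the cells with oligodendrocyte precursor markers (423 CPM, 59 UMIs) than in neurons (121 CPM). Of these 59 UMIs, 55 came from 43 control cells (111725 UMIs of all genes) and 4 from 10 Eed-cKO cells (27803 UMIs). Kcnip3 was at 265 CPM (37 UMIs) in the same precursor-marked cells and at 115 CPM (211 UMIs) in astrocyte-marked cells, against 15.1 CPM in neurons. Kcne2 had 47 UMIs in ependymal- or tanycyte-marked cells, all from Eed-cKO embryos. These were 50 Eed-cKO cells (171801 UMIs of all genes) and 23 control cells (86678 UMIs). The spread of the 47 UMIs over embryos or cells is not given, and no difference was tested.

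**Figure D1:**
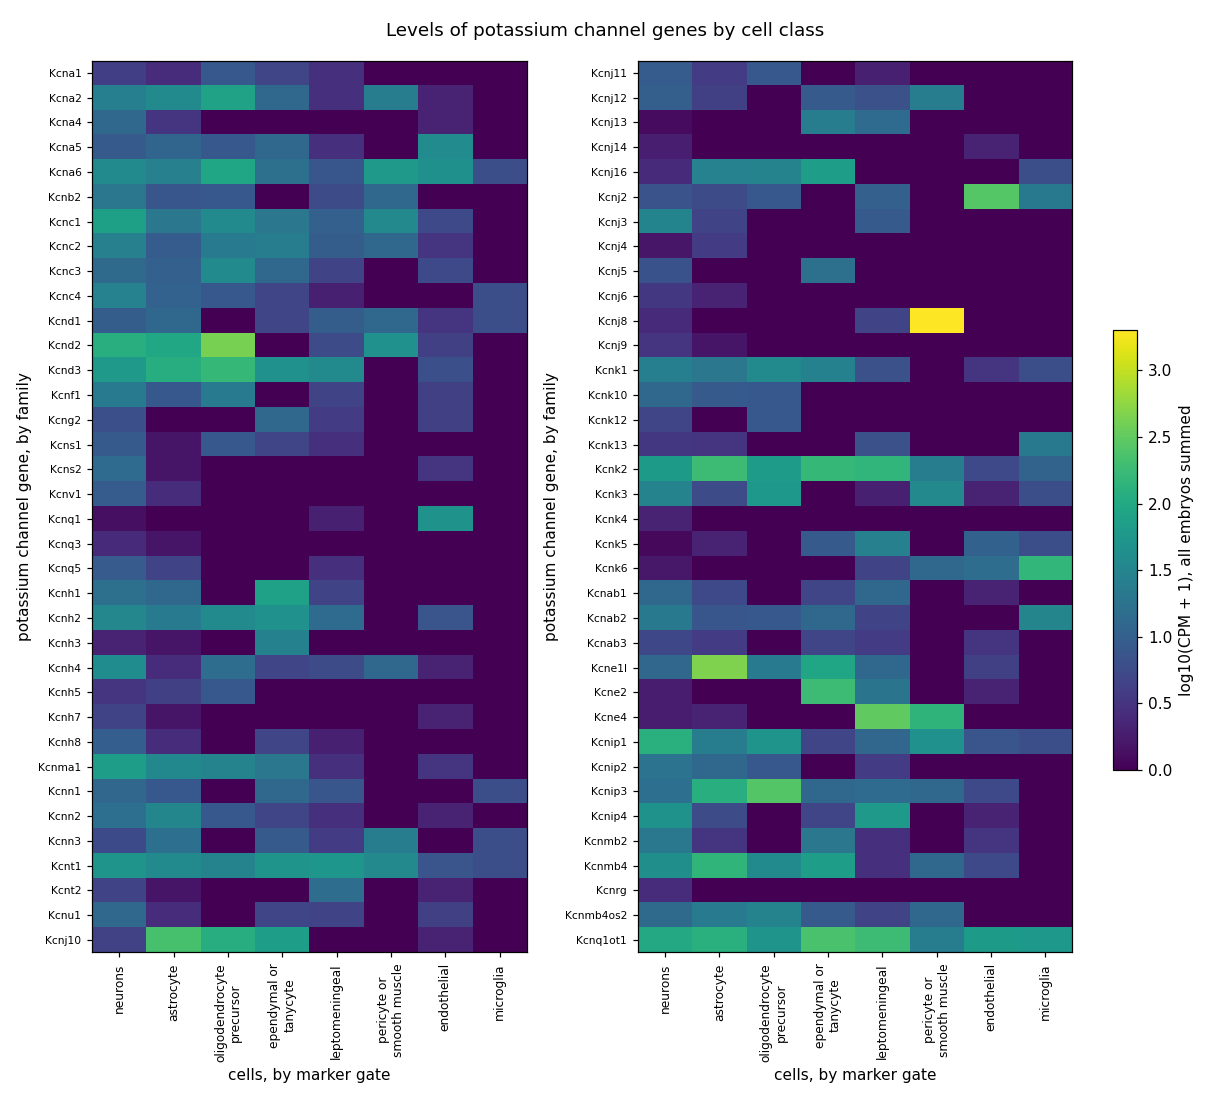
Level of 72 of the 74 potassium channel genes (rows, ordered by family) in neurons and in 7 classes of cells outside the neuron gate (columns), as log10(CPM + 1) of UMIs summed over all embryos. The brightest cell is Kcnj8 in pericyte- or smooth muscle-marked cells (2007 CPM), and Kcnj10 and Kcne1l stand out in astrocyte-marked cells (216 and 466 CPM).

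The first comparison asked which potassium channel genes differed between Eed-cKO and control neurons. More of them were lower than higher in Eed-cKO: 12 of the 56 that passed the filter on low counts were lower (21.4%, against 7.74% of all 12200 genes tested), and 5 were higher (8.93%, against 9.11% of all genes). The lower ones were pore subunits of the Kv1, Kv4, Kv7, Kir and K2P families, the silent subunits Kcns2 and Kcnv1 and the auxiliary subunit Kcnip4. Among the 5 higher ones, 4 were auxiliary subunits (Kcnab1, Kcnab3, Kcne1l and Kcnip3) and Kcnn2 was a calcium-activated channel. The median log2 fold change over the 56 genes was -0.05, against 0.01 over all genes. Scaled by library size without TMM, the split was 9 lower and 6 higher, and over all genes the share of higher among called genes moved from 54.1% to 64.3%. With sex as a covariate 10 were lower and 4 higher. Without the largest library 15 were lower and 7 higher, and without control embryo 2 the counts were 8 and 3. Shares over all genes are not given for the sex, library and embryo fits, so these counts cannot be set against the whole table. When every cell was thinned to 2000 UMIs, which kept 4814 control and 4277 Eed-cKO neurons, calls were lost for Kcna2, Kcna4, Kcna6, Kcnab1, Kcne1l, Kcnip4, Kcnj3, Kcnj5, Kcnj11 and Kcnq5, and with litter labels as samples for Kcna2, Kcnab1, Kcnip4, Kcnj5, Kcnk2 and Kcnn2. In 2 genes (Kcnd2 and Kcnj3) every Eed-cKO embryo lay below every control embryo, as did 1.53% of all genes, and in Kcnab3 every one lay above, as did 2% of all genes.

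**Figure D2:**
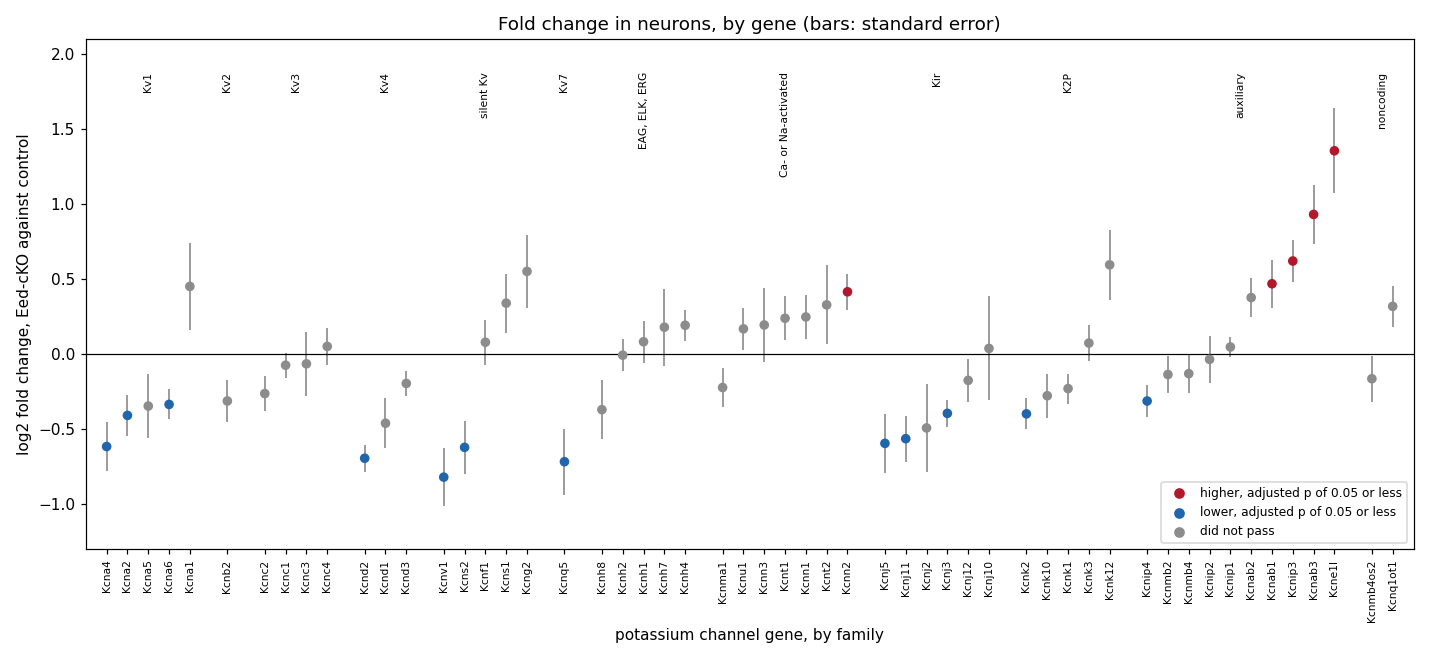
Log2 fold change in neurons (Eed-cKO against control, 9 against 6 embryos) for 54 of the 56 genes tested, grouped by family, with the standard error as bars. Blue points (12) were lower and red points (5) higher at an adjusted p of 0.05 or less, and the red points, apart from Kcnn2, lie among the auxiliary subunits.

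The change with the smallest p was in Kcnd2, the Kv4.2 pore subunit of the somatodendritic A-type current (chromosome 6, 21215503-21729805, plus strand; all gene positions are whole genes of GENCODE vM21 on GRCm38). Control embryos were at 123, 145 and 184 CPM (lowest, median and highest) and Eed-cKO embryos at 77, 87.3 and 116 CPM. The groups did not overlap. Its mean was 149 ± 21.3 CPM (SD, n = 6, 5169 UMIs) in control and 91.7 ± 11.9 CPM (n = 9, 2669 UMIs) in Eed-cKO, 1.62-fold lower (log2FC -0.70, SE 0.09, edgeR adjusted p = 1.00e-05). The other Kv4 pore genes did not pass. Kcnd3 was at 53.1, 60.1 and 73.0 CPM in control and 48.0, 53.9 and 61.3 CPM in Eed-cKO (log2FC -0.20, adjusted p = 0.0995), and Kcnd1 had a log2FC of -0.46 (adjusted p = 0.0599).

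Promoter sequence, the 250 bases before the RefSeq start (GRCm38.p6), is shown for Kcnd2 and Kcnj3 because these are the 2 genes in which all Eed-cKO embryos lay below all control embryos, and because PRC2 is known to gather at CpG-rich promoters. It is printed 5′ to 3′ on the gene's strand with each CG dinucleotide in capitals.
Kcnd2, chr6:21215096-21215345, plus strand: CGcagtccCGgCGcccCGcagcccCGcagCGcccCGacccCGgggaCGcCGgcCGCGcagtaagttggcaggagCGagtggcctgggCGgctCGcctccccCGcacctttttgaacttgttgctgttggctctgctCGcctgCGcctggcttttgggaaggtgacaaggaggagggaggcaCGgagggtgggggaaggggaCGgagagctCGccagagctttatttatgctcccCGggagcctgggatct
Kcnj3, chr2:55435720-55435969, plus strand: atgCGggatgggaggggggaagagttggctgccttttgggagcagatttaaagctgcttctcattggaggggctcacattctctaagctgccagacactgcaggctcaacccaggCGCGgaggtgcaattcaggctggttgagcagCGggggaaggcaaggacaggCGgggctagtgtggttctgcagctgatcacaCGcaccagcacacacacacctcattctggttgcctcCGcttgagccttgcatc
The Kcnd2 window held 22 CG dinucleotides, a number reached by 14.8% of the 32851 promoter windows in the RefSeq table, and the Kcnj3 window held 7, reached by 46.3% (median over all windows 6). The 3 windows listed for Kcnip3, which was higher in Eed-cKO, held 4, 2 and 23. Kcnab3, in which all Eed-cKO embryos lay above all control embryos, was not looked at. An exon of Gm26794 on the opposite strand reaches into the Kcnj3 window. Windows were found for 54 of the 74 genes (73.0%), fewer than 80%, so no check of CG content over the set was made, and no binding or methylation was measured here.

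Proteins that assemble with Kv4 channels were split. Kcnip4, a Kv channel-interacting protein that alters Kv4 gating (chromosome 5, 48389502-49524907), was at 44.1, 51.4 and 62.8 CPM in control and 31.5, 42.4 and 50.7 CPM in Eed-cKO (log2FC -0.31, SE 0.11, adjusted p = 0.0437). Its groups overlapped, and the call was lost after removing the neurons with markers of another type (-0.24, adjusted p = 0.113), with sex as a covariate (-0.29, adjusted p = 0.0810) and with any of 9 embryos left out (control 2, 3, 4 and 6, Eed-cKO 1, 3, 4, 6 and 8). Kcnip3, also known as the calcium-binding repressor DREAM (chromosome 2, 127456498-127522094), went the other way. It was at 9.76, 12.4 and 15.1 CPM in control and 14.8, 19.3 and 27.0 CPM in Eed-cKO, with 7 of 9 Eed-cKO embryos above every control embryo (log2FC 0.62, SE 0.14, adjusted p = 0.00364). After removing the neurons with markers of another type it was 0.60 (adjusted p = 0.00770), although the gene is also counted in astrocyte-marked cells as given above. Kcnip1 (112, 121 and 136 CPM in control, 103, 127 and 144 CPM in Eed-cKO, adjusted p = 0.685) and Kcnip2 (log2FC -0.04, adjusted p = 0.905) did not pass. Outside the Kcn names, Dpp10, which like Dpp6 is a transmembrane partner of Kv4 channels, was at 114 ± 15.1 CPM in control and 67.9 ± 14.9 CPM in Eed-cKO (log2FC -0.79, SE 0.11, adjusted p = 4.47e-05), while Dpp6 had a log2FC of -0.14 (adjusted p = 0.148).

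Of the 5 Kv1 genes, whose channels hold back firing near threshold, 3 were lower. Kcna4 (chromosome 2, 107290639-107298502) was at 11.4, 14.5 and 18 CPM in control and 6.42, 8.39 and 14.5 CPM in Eed-cKO, with 7 of 9 Eed-cKO embryos below every control embryo (log2FC -0.62, SE 0.17, adjusted p = 0.0132). Kcna6 (chromosome 6, 126708329-126740674), the Kv1 gene with most UMIs in control neurons, was at 36.5, 42.9 and 44.6 CPM in control and 24.5, 32.3 and 50.7 CPM in Eed-cKO (log2FC -0.34, SE 0.10, adjusted p = 0.0241), and 1 Eed-cKO embryo exceeded all control embryos. For Kcna2 (chromosome 3, 107101146-107115005), found along axons, the values were 22, 28.4 and 37.5 CPM and 9.75, 21.4 and 26.8 CPM (log2FC -0.41, SE 0.14, adjusted p = 0.0428). The Kcna2 call was lost after removing the neurons with markers of another type (-0.37, adjusted p = 0.0614), with library size alone (-0.38, adjusted p = 0.0664) and with any of 8 embryos left out (control 1, 3, 4 and 6, Eed-cKO 2, 5, 6 and 8). Kcna1 (log2FC 0.45, adjusted p = 0.310) and Kcna5 (-0.35, adjusted p = 0.285) did not pass.

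The cytoplasmic beta subunits of Kv1 channels were higher where they passed. Kcnab3 (chromosome 11, 69326258-69333042) was at 2.25, 2.68 and 4.30 CPM in control (104 UMIs) and 4.61, 5.54 and 7.63 CPM in Eed-cKO (163 UMIs), without overlap (log2FC 0.93, SE 0.20, adjusted p = 0.00242). The control median lay under 1.5 on a plain log2 CPM scale. The filter took the median over all embryos with a small count added, and without overlap that median fell among the Eed-cKO values. Whether the control values alone would have passed is not shown. The call was kept when no gene filter was used. Kcnab1 (chromosome 3, 65109384-65378223) was at 7.0, 10.2 and 13.3 CPM in control and 7.80, 13.7 and 18.4 CPM in Eed-cKO, with overlap (log2FC 0.47, SE 0.16, adjusted p = 0.0488). This call was lost after removing the neurons with markers of another type (0.38, adjusted p = 0.0936), with sex as a covariate (0.42, adjusted p = 0.0972) and with any of 10 embryos left out (control 1, 2 and 4, Eed-cKO 1, 2 and 4 to 8). Kcnab2 had a log2FC of 0.38 (SE 0.13, adjusted p = 0.0513).

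Of the 4 Kv3 genes, which carry the current of fast-spiking neurons, 0 passed the threshold. Kcnc1 was at 67.6, 75.6 and 90.4 CPM and 48.7, 71.6 and 88.9 CPM (log2FC -0.08, SE 0.08, adjusted p = 0.592). The ranges overlapped.

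Of the 5 silent subunits, 2 were lower. Kcnv1 (chromosome 15, 45106284-45114920), which modifies Kv2 channels, was at 7.54, 9.81 and 13.3 CPM in control and 2.70, 5.28 and 8.44 CPM in Eed-cKO, with 8 of 9 Eed-cKO embryos below every control embryo (1.77-fold lower, log2FC -0.82, SE 0.19, adjusted p = 0.00539). Kcns2 (chromosome 15, 34837355-34843407), another modifier of Kv2 channels, was at 14.1, 15.1 and 20.4 CPM and 4.86, 9.42 and 16.2 CPM, again with 8 of 9 below (log2FC -0.62, SE 0.17, adjusted p = 0.0170), and its call was lost without control embryo 2. Kcnf1 was at 15.9, 20.6 and 24.6 CPM in control and 5.85, 21 and 29.3 CPM in Eed-cKO (log2FC 0.08, adjusted p = 0.773).

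The Kv7 genes encode the M-current, a slow potassium current that is shut by muscarinic receptors. Kcnq5 (chromosome 1, 21398403-21961942) was at 7.43, 10.1 and 12.9 CPM in control and 3.58, 6.42 and 12.4 CPM in Eed-cKO, with 7 of 9 Eed-cKO embryos below every control embryo (log2FC -0.72, SE 0.22, adjusted p = 0.0282). Its call was lost with sex as a covariate (-0.67, adjusted p = 0.0520) and with any of 6 embryos left out (control 1, 2 and 4, Eed-cKO 1, 3 and 5). Kcnq3 (59 and 43 UMIs) did not pass the count filter, with 0.600 to 2.44 CPM in control and 0 to 2.07 CPM in Eed-cKO. In the EAG, ELK and ERG group 0 of 5 tested genes passed, and Kcnh4, which has most UMIs of them, was at 33.2, 35.7 and 45.9 CPM and 36.0, 41.3 and 68.2 CPM (log2FC 0.19, adjusted p = 0.223).

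**Figure D3:**
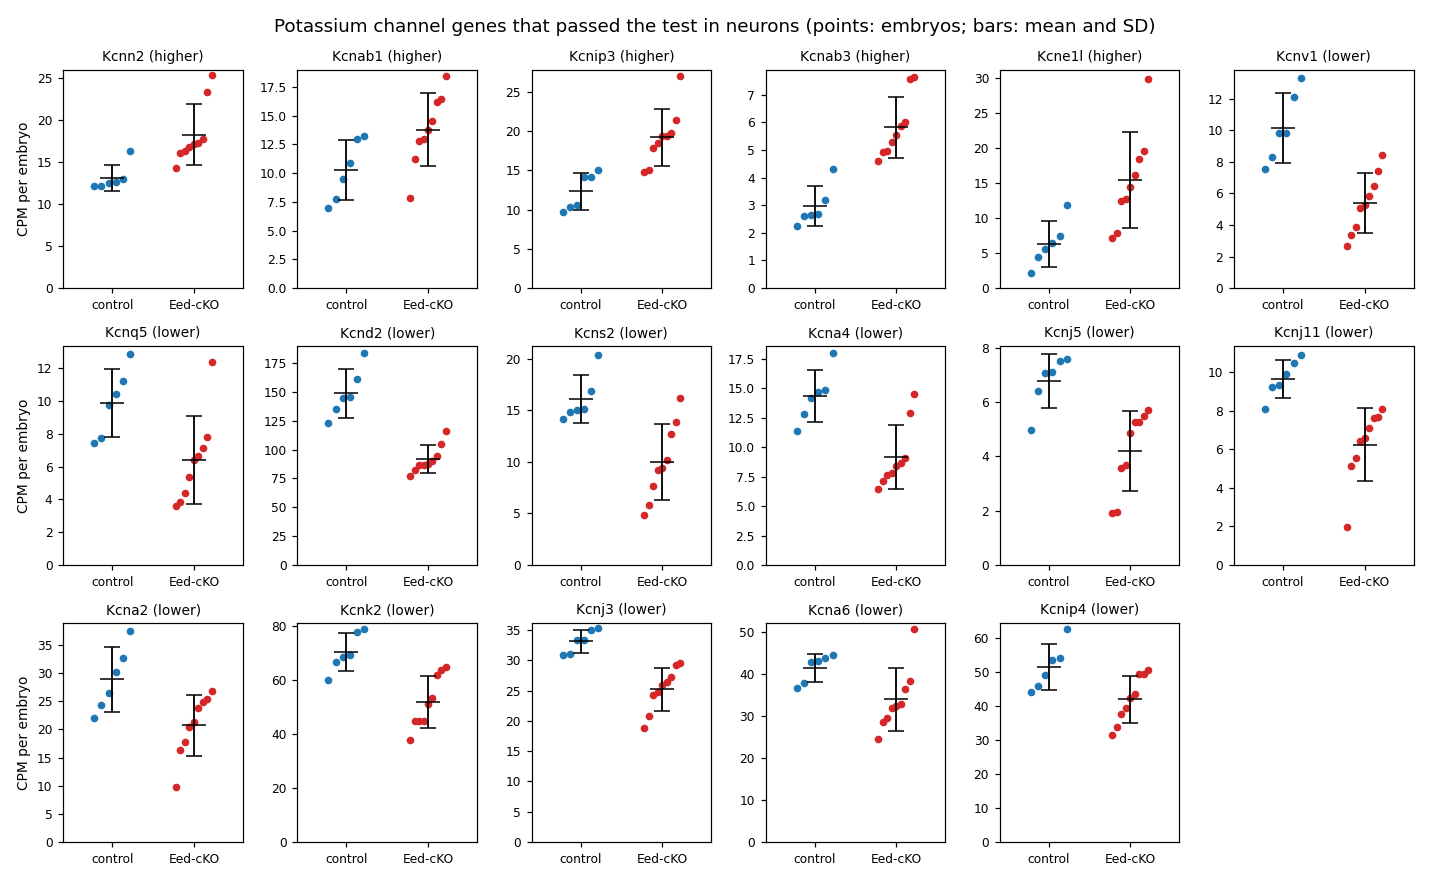
CPM in each embryo's neurons (points, 6 control and 9 Eed-cKO embryos) for the 17 potassium channel genes past the threshold, with the mean and SD as bars and each axis from 0. The groups are apart in Kcnd2, Kcnj3 and Kcnab3 and overlap in the other 14.

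Of 6 inward rectifier genes tested, 3 were lower, and these serve receptor and metabolic control. Kcnj3, a GIRK pore subunit opened by G proteins (chromosome 2, 55435970-55598145), was at 30.8, 33.4 and 35.3 CPM in control and 18.9, 25.9 and 29.6 CPM in Eed-cKO, without overlap. Its mean was 33.2 ± 1.89 CPM (n = 6) and 25.2 ± 3.57 CPM (n = 9), 1.32-fold lower (log2FC -0.40, SE 0.09, adjusted p = 0.00385). Kcnj5, another GIRK subunit (chromosome 9, 32314707-32344350), was at 4.95, 7.08 and 7.58 CPM and 1.91, 4.86 and 5.72 CPM (log2FC -0.60, SE 0.20, adjusted p = 0.0406). This call was lost after removing the neurons with markers of another type (-0.51, adjusted p = 0.0803), with library size alone (-0.57, adjusted p = 0.0523) and with any of 8 embryos left out (control 1, 2, 4 and 6, Eed-cKO 4 to 7). The remaining GIRK genes, Kcnj6 (1.80 to 3.21 and 1.32 to 3.90 CPM) and Kcnj9, did not pass the count filter.

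Kcnj11, the Kir6.2 pore of the neuronal ATP-sensitive channel through which hypothalamic neurons sense glucose (chromosome 7, 46093953-46100764), was at 8.09, 9.61 and 10.9 CPM in control and 1.95, 6.60 and 8.10 CPM in Eed-cKO. Of the 9 Eed-cKO embryos 8 lay below every control embryo (1.48-fold lower, log2FC -0.57, SE 0.15, adjusted p = 0.0148). Abcc8, the sulfonylurea receptor that assembles with it, was at 12.3 ± 3.14 and 12.4 ± 3.95 CPM (log2FC -0.01, adjusted p = 0.976). The glial gene Kcnj10 was at 1.35, 2.82 and 6.57 CPM in control neurons and 1.32, 2.76 and 5.53 CPM in Eed-cKO neurons (log2FC 0.04, adjusted p = 0.962). Kcnj8 was not tested, with 20 UMIs in control neurons and 78 in Eed-cKO neurons.

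Among the K2P leak channels 1 of 5 tested genes was lower. Kcnk2, the mechanically gated channel TREK-1 (chromosome 1, 189207930-189402273), was at 60.0, 68.8 and 78.9 CPM in control and 37.8, 51.1 and 64.8 CPM in Eed-cKO (log2FC -0.40, SE 0.10, adjusted p = 0.0106), with 6 of 9 Eed-cKO embryos below every control embryo. Of the 7 genes with Kcnma, Kcnn, Kcnt and Kcnu names, only Kcnn2, the SK2 channel of the afterhyperpolarization, was called. It was at 12.1, 12.6 and 16.3 CPM in control and 14.3, 17.1 and 25.3 CPM in Eed-cKO (log2FC 0.41, SE 0.12, adjusted p = 0.0214), and the call was lost without control embryo 2 or 6. Kcnma1, the BK channel, was at 48.7, 74.5 and 99.3 CPM and 43.7, 65.3 and 78.9 CPM (log2FC -0.22, adjusted p = 0.262).

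Kcne1l (chromosome X, 142304752-142306294) had the largest fitted fold among the 17 called genes. It was at 2.20, 5.98 and 11.9 CPM in control and 7.15, 14.3 and 29.8 CPM in Eed-cKO, with 7 of 9 Eed-cKO embryos above every control embryo (2.56-fold higher, log2FC 1.35, SE 0.28, adjusted p = 0.00216). The gene's level is 40.8 times higher in astrocyte-marked cells than in neurons, and the astrocyte markers moved with it as given above. After removing the neurons with markers of another type the astrocyte sum was 143 to 170 CPM in control and 181 to 230 CPM in Eed-cKO, and the log2 fold change of Kcne1l was 1.02 (adjusted p = 0.00285). With cells thinned to 2000 UMIs it was 0.88 (adjusted p = 0.140). The part of remaining astrocyte RNA in it was not tested. The noncoding RNA Kcnq1ot1, transcribed from the imprinted region of Kcnq1, was at 74.1, 87.3 and 111 CPM and 65.4, 127 and 141 CPM (log2FC 0.32, SE 0.13, adjusted p = 0.110), and Kcnmb4os2 did not pass either (-0.17, adjusted p = 0.498).

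Of the 74 genes, 18 did not pass the count filter in neurons: Kcnh3, Kcnh5, Kcnk4, Kcnk5, Kcnk6, Kcnk13, Kcnj4, Kcnj6, Kcnj8, Kcnj9, Kcnj13, Kcnj14, Kcnj16, Kcnq1, Kcnq3, Kcne2, Kcne4 and Kcnrg. The strand used in counting is not given in the sources used here, and exons on the opposite strand overlap 26 of the 74 genes, 8 of them among the 17 called (Kcnab1, Kcnab3, Kcna6, Kcnip4, Kcnj3, Kcnk2, Kcnn2 and Kcnq5), so part of their UMIs is uncertain. Same-strand overlaps touch Kcnk4 and Kcnab2.

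Other genes of membrane excitability gave a background for these counts. Over all 12200 genes tested, 7.74% were lower and 9.11% higher, and of the potassium channel genes 21.4% were lower. Of 10 sodium channel genes tested, 2 were lower (Scn2a1, log2FC -0.34, adjusted p = 0.0152, and Scn3b, -0.25, adjusted p = 0.0126) and 0 higher, with a median of -0.10. Of 15 calcium channel genes, 2 were lower (Cacna1b, -0.29, adjusted p = 0.0188, and Cacna1c, -0.32, adjusted p = 0.0217) and 1 higher (Cacna1g, 0.27, adjusted p = 0.0340), with a median of -0.01. Hcn3, one of the pacemaker cation channels, was lower (log2FC -0.38, adjusted p = 0.00376). Of 10 potassium channel partners tested, 3 were lower (Dpp10, Lrrc55 and Cntnap2) and 0 higher. Of 10 genes for sodium-potassium pumps and chloride cotransporters, 3 were lower, among them the pump subunits Atp1b1 and Atp1b3, and the cotransporter Slc12a7 was higher (log2FC 0.74, adjusted p = 0.00342). A list of 17 tested neuron maturation genes held 3 lower (Syn1, Snap91 and Gap43) and 0 higher, with a median of -0.12. Each of these lists held more lower than higher genes, so an excess of lower calls is not shown to be particular to potassium channel genes.

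The second comparison asked whether the potassium channel genes differ between glutamatergic and GABAergic neurons. Neurons with UMIs of Slc17a6, the vesicular glutamate transporter, and none of Slc32a1, the vesicular GABA transporter, were called Slc17a6-only, and the reverse Slc32a1-only. Control embryos held 2575 Slc17a6-only neurons (median 6569 UMIs) and 1398 Slc32a1-only neurons (median 5202 UMIs), and Eed-cKO embryos 2155 (median 5333) and 621 (median 4399). Neurons with both transcripts, left out here, numbered 309 in control and 1109 in Eed-cKO, so the classes do not take the same part of the neurons in the 2 genotypes. An embryo's Slc32a1-only sum came from 172 to 273 cells in control and 16 to 110 cells in Eed-cKO. The classes were compared within embryos, with the embryo as a block, and 59 of the 74 genes were tested.

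In control embryos few potassium channel genes separated the classes: 3 were higher in Slc32a1-only neurons (5.08%, against 2.49% of 12549 genes) and 2 were lower (3.39%, against 3.64%). Kcnd3, the Kv4.3 pore subunit, was at 46.5, 47.9 and 69.8 CPM in Slc17a6-only neurons and 56.3, 74.4 and 89.9 CPM in Slc32a1-only neurons, and was higher in the latter in 6 of 6 embryos (log2 difference 0.44, SE 0.10, edgeR adjusted p = 0.00282). Kcnmb2, an auxiliary subunit that inactivates BK channels (chromosome 3, 31902507-32200180), was at 12.9, 19.3 and 20.5 CPM and 20.5, 30.7 and 38.7 CPM, also higher in 6 of 6 (log2 difference 0.73, SE 0.19, adjusted p = 0.0110). The silent subunit Kcnf1 (chromosome 12, 17172100-17176888) was at 13.8, 18.9 and 25.4 CPM and 22.2, 26.9 and 37.4 CPM (log2 difference 0.52, SE 0.15, adjusted p = 0.0270, 6 of 6 embryos). The Kcnd3 call was lost without control embryo 4, the Kcnmb2 call without control embryo 3 or 6, and the Kcnf1 call without control embryo 2, 5 or 6 and without the largest library.

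Kcnip4 and Kcnj5 were lower in Slc32a1-only neurons, each in 6 of 6 control embryos. Kcnip4 was at 50.3, 57.3 and 69.3 CPM in Slc17a6-only and 30.0, 43.2 and 52.8 CPM in Slc32a1-only neurons (log2 difference -0.45, SE 0.13, adjusted p = 0.0180). Kcnj5 was at 6.30, 9.46 and 10.6 CPM and 1.77, 4.50 and 6.89 CPM (162 and 36 UMIs, log2 difference -1.0, SE 0.31, adjusted p = 0.0454). The Kcnip4 call was lost without control embryo 1, 2 or 6 and the Kcnj5 call without control embryo 1, 2, 4, 5 or 6, without the largest library and after removing neurons with markers of another type. When every cell was thinned to 2000 UMIs, which matched the UMIs per cell but not the number of cells, 0 of these 5 calls were left. The log2 differences were then 0.49 for Kcnd3, 0.26 for Kcnmb2, 1.02 for Kcnf1, -0.45 for Kcnip4 and -0.38 for Kcnj5, on fewer UMIs, and the part of depth was not tested further.

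In Eed-cKO embryos 2 genes were higher in Slc32a1-only neurons (3.39%, against 2.54% of all genes) and 1 was lower (1.69%, against 4.55%). Kcnip4 was again lower, at 32.4, 41.4 and 65.7 CPM in Slc17a6-only and 0, 29.0 and 73.3 CPM in Slc32a1-only neurons, in 8 of 9 embryos (log2 difference -0.58, SE 0.18, adjusted p = 0.0407). With library size alone it was no longer called, and over all genes the share of higher among called genes moved from 35.8% to 48.3%. Kcnab1 was higher in 7 of 9 embryos (log2 difference 1.00, SE 0.30, adjusted p = 0.0317), and Kcna5 (chromosome 6, 126532551-126535412) in 6 of 9, on 75 UMIs in Slc17a6-only and 41 in Slc32a1-only neurons (log2 difference 1.25, SE 0.37, adjusted p = 0.0303). These calls, too, were lost on thinning to 2000 UMIs (log2 differences of -0.72 for Kcnip4, 0.19 for Kcnab1 and 1.70 for Kcna5), and with single embryos left out (Kcnip4 with Eed-cKO 1, 4, 5, 6 or 8, Kcnab1 with 2 or 5, Kcna5 with 1, 4, 7 or 8).

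**Figure D4:**
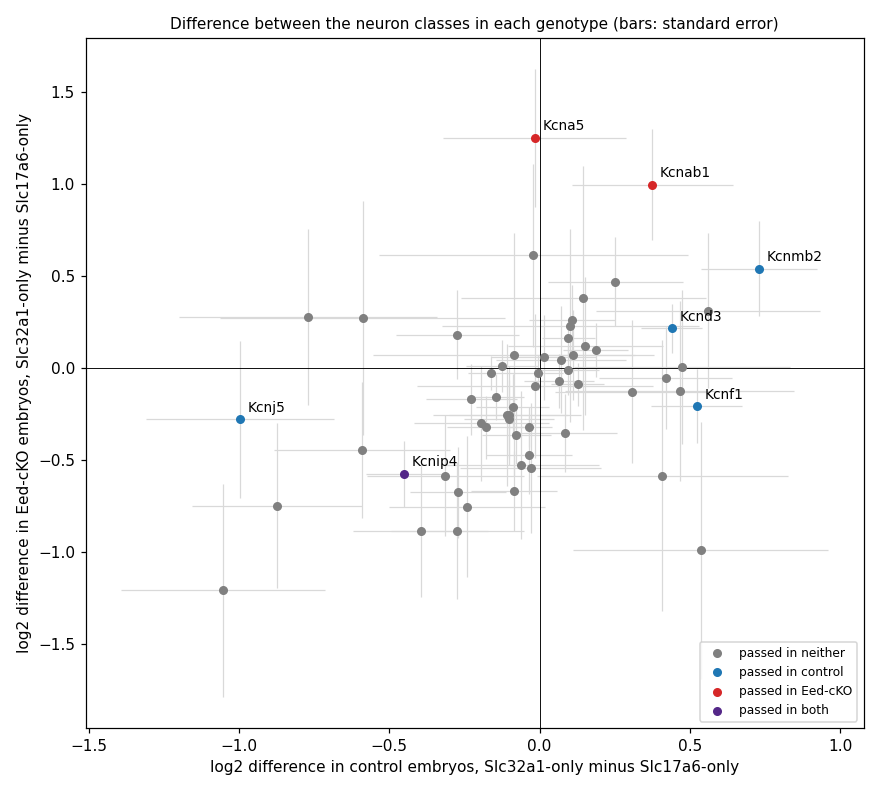
Log2 difference between Slc32a1-only and Slc17a6-only neurons in control embryos (x axis, n = 6) and Eed-cKO embryos (y axis, n = 9) for the 59 genes tested, with standard errors as bars. Kcnip4 is below 0 on both axes and passed in both genotypes. Kcnd3, Kcnmb2, Kcnf1 and Kcnj5 passed in control, and Kcna5 and Kcnab1 in Eed-cKO.

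No potassium channel gene passed the test of whether the class difference itself changed with the genotype (0 of 59 in either direction). The difference is signed, Slc32a1-only minus Slc17a6-only. Over all genes 0.39% passed with a higher and 0.789% with a lower signed difference in Eed-cKO. At an unadjusted p under 0.05 there were 4 potassium channel genes in edgeR (Kcnf1, Kcna5, Kcnj3 and Kcnd2, smallest adjusted p = 0.184) and 2 in DESeq2, which also called 0. The smallest p was that of Kcnf1, with a log2 difference of 0.52 in control and -0.21 in Eed-cKO (difference -0.73, SE 0.25), followed by Kcna5, with -0.02 and 1.25 (difference 1.27, SE 0.48, adjusted p = 0.291). Among the partner proteins, Dpp10 and Cntnap2 passed, each with a lower signed difference in Eed-cKO. Both were called lower in Slc32a1-only neurons in Eed-cKO, and neither was called between the classes in control. The channel calls made in only 1 genotype are therefore not shown to differ between genotypes.

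Within each class, Eed-cKO was compared with control on the same embryos, so these values share cells with the comparison of all neurons. In Slc17a6-only neurons 3 of 59 tested genes were lower (5.08%, against 4.29% of 12258 genes) and 2 higher (3.39%, against 4.54%). In Slc32a1-only neurons 2 of 60 were lower (3.33%, against 5.18% of 12749 genes) and 0 higher (against 4.97%). With library size alone the calls were 2 lower and 3 higher in Slc17a6-only neurons and 1 lower and 1 higher in Slc32a1-only neurons, and over all genes the share of higher among called genes moved from 51.4% to 63.5% and from 49.0% to 63.6%. Without the largest library they were 5 lower and 3 higher, and 3 lower and 1 higher, again with no share over all genes to set them against.

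Kcnd2 was lower in both classes, without overlap between the groups in either. In Slc17a6-only neurons it was at 135, 148 and 200 CPM in control and 68.4, 92.3 and 122 CPM in Eed-cKO (log2FC -0.72, SE 0.10, adjusted p = 2.90e-05). In Slc32a1-only neurons it was at 131, 153 and 177 CPM and 32.3, 71.8 and 111 CPM (log2FC -1.01, SE 0.13, adjusted p = 3.91e-07). After removing the neurons with markers of another type the log2FC was -0.67 and -0.95. Each call was kept in all 10 alternative settings run and with each embryo left out. The difference between the 2 fold changes did not pass (log2 -0.29, SE 0.13, adjusted p = 0.482).

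Kcnq5 was lower in Slc17a6-only neurons, at 8.63, 13.1 and 15.5 CPM in control and 4.58, 7.83 and 14.3 CPM in Eed-cKO (log2FC -0.73, SE 0.22, adjusted p = 0.0376). Kcnk13, a K2P gene (57 and 18 UMIs), was lower there too, at 2.09, 2.61 and 5.23 CPM and 0, 1.02 and 2.48 CPM (log2FC -1.16, SE 0.37, adjusted p = 0.0486). Kcnab3 (0.83, adjusted p = 0.0470) and Kcnab2 (0.51, adjusted p = 0.0475) were higher there. In Slc32a1-only neurons Kcnj3 was at 25, 33.1 and 38.3 CPM in control and 2.62, 17.9 and 64.6 CPM in Eed-cKO (log2FC -0.77, SE 0.25, adjusted p = 0.0444), and 1 Eed-cKO embryo exceeded all control embryos. Single embryos left out ended each of these calls: for Kcnq5 control 1, 2 or 4 or Eed-cKO 1 to 5, for Kcnab2 control 1, 2, 4 or 6 or Eed-cKO 2, 6, 7 or 8, for Kcnab3 any control embryo or Eed-cKO 1, 2, 3, 5, 6 or 9, and for Kcnj3 control 2, 4, 5 or 6 or Eed-cKO 2 to 7. Kcnk13 passed the count filter in 7 of these fits (without Eed-cKO 3 to 9) and was called in 0 of them. The filter takes the median over all embryos of a log2 CPM with a small count added. On a plain log2 scale both Kcnk13 medians lay under 1.5, the Eed-cKO one further, so its entry into the test rested more on control. For Kcnab3 the control median here (2.76 CPM) also lay under 1.5 on a plain log2 scale, and its Eed-cKO median (4.95 CPM) did not. After removing the neurons with markers of another type the calls of Kcnq5 (-0.65, adjusted p = 0.0589), Kcnk13 (-0.99, adjusted p = 0.138), Kcnab2 (0.48, adjusted p = 0.0600) and Kcnj3 (-0.75, adjusted p = 0.0519) were lost and that of Kcnab3 was kept (0.86, adjusted p = 0.0480). The Kcnab2 call was also lost without the largest library. The 12 genes lower in all neurons were chosen on cells that include both classes, so agreement in sign is partly built in and is no support. Of them, 12 had a fold change below 0 in Slc17a6-only neurons (37 of all 59 tested there). In Slc32a1-only neurons 11 did (38 of all 60), and Kcnj5 was at 0.16 (SE 0.49). In each class 2 of the 12 passed.

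**Figure D5:**
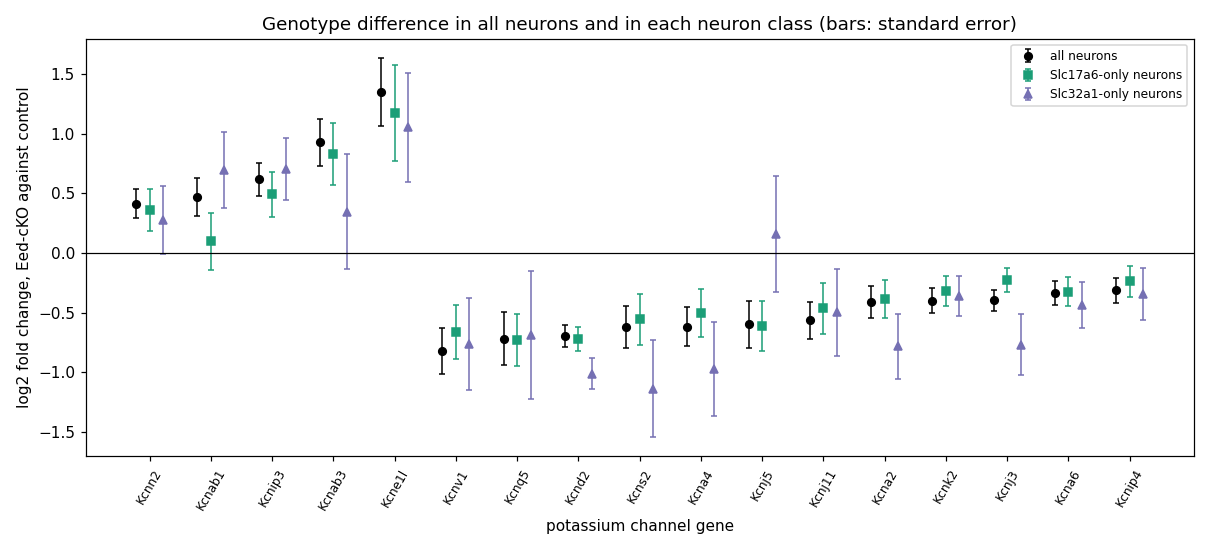
Log2 fold change (Eed-cKO against control) of the 17 genes called in all neurons (circles), in Slc17a6-only neurons (squares) and in Slc32a1-only neurons (triangles), with standard errors as bars. The bars are longest in Slc32a1-only neurons, which hold the fewest UMIs, and Kcnd2 lies below 0 by several standard errors in each.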

How the data were processed

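The deposited file held raw UMI counts for 14121 cells of 48 libraries. The authors had processed reads in the SureCell application, with STAR 2.5.2b, SAMtools 1.3 and mm10 per the labels. Cells of low depth had been removed before deposit. Counting strand and annotation are not given in the sources used here. Embryos and litters were read from library names, a reading that the labels do not spell out.

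From these counts, UMIs were summed per embryo and cell set and compared by the quasi-likelihood test of edgeR (version 4.0.16, under R 4.3.3) after TMM scaling. P-values were adjusted over all genes by Benjamini-Hochberg, with a threshold of 0.05. Genes needed at least 15 UMIs, 2 in 1 sum and a median log2 CPM of 1.5 over the sums, with a small count added. The standard error is the log2 fold change divided by the square root of F. Classes needed 10 cells per embryo. Slc17a6 and Slc32a1 were left out of the class tests. No doublet caller was run. Cells outside the gate were named by 3 of a list's markers.

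Alternatives covered scaling, gene filter, tool (DESeq2 1.42.0, limma 3.58.1), replicate, sex, gate, depth, class call and each embryo left out. The fit was tested on simulated data. Python 3.11.15, numpy 2.4.6 and pandas 2.3.3 were used. The genes and lists were chosen with earlier results of these data known. Named were the genes past the threshold, the gene of each family with most UMIs in control neurons, and Kcnj3, Kcnj6, Kcnj8, Kcnj10, Kcnj11, Kcnma1, Kcnq3, Kcnd2, Kcnd3, Kcnc1, Kcna2, Kcnk2 and Kcnq1ot1. A few others near them (Kcnd1, Kcnip2, Kcna1, Kcnab2, Kcnmb4os2 and those set out by cell class) were chosen after their values were seen. A few genes are not reported here. Genes of the fixed lists were named where called or paired with a channel.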

Additional observations from a re-analysis of the deposited data

Results flagged for a closer look

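For 32 named potassium channel genes, each genotype's neuron levels were checked for a single embryo far from the rest, by the gap to its nearest neighbour as a share of the range. Of 64 groups, 7 passed the 95% limit, where chance gives about 1 in 20. Eed-cKO embryo 9, which has the fewest UMIs (510215), was lowest in Kcnc1 (48.7 CPM, next 69.1), Kcnf1 (5.85 CPM, next 17.7) and Kcnj11 (1.95 CPM, next 5.15), and highest in Kcnh4 (68.2 CPM, next 48.3). Eed-cKO embryo 7 was highest in Kcnq5 (12.4 CPM, next 7.80). In control, embryo 5, which holds the largest library, was highest in Kcnh4 (45.9 CPM, next 37.5) and embryo 3 in Kcnn2 (16.3 CPM, next 13). Without Eed-cKO embryo 9 the Kcnj11 call was kept.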

How the results depend on the processing

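Of the 17 calls in all neurons, 4 (Kcnd2, Kcnv1, Kcnab3 and Kcnip3) were kept in all 15 alternative settings and with each embryo left out, 10 were kept with each embryo left out, and 0 reversed. The count of called potassium channel genes was 5 by limma-voom with a minimum change of 0.18, 28 with libraries as samples, 11 with litter labels as samples and 8 with cells thinned to 2000 UMIs, and 11 to 24 with single embryos left out (11 without control 2). Libraries of an embryo are not independent, so the 28 is no sign of more power. For the classes in control (5 calls) the count was 2 by DESeq2, 0 when thinned, 2 without the replicate block, 2 with a class call of 2 UMIs, and 1 to 6 with embryos left out (3, 2, 3, 3 and 1 without control 1, 2, 4, 5 and 6). For the classes in Eed-cKO (3 calls) it was 0 when thinned, 1 without the replicate block, 0 with a class call of 2 UMIs, and 1 to 5 with embryos left out (1, 1 and 5 without Eed-cKO 4, 5 and 9). For the change of the class difference it was 0 to 0. Within Slc17a6-only neurons (5 calls) it was 2 with a total-count filter only, 3 by DESeq2, 1 by limma-voom, 3 with a gate of 4 markers, 1 when thinned, 1 with a class call of 2 UMIs, 3 without neurons with markers of another type and 8 without the largest library, and 1 to 8 with embryos left out (2, 1, 1, 8 and 2 without control 1, 2, 4, 5 and 6, and 1, 2, 3, 2, 3 and 3 without Eed-cKO 2, 3, 5, 6, 8 and 9). Within Slc32a1-only neurons (2 calls) it was 1 by DESeq2, 1 with a class call of 2 UMIs, 1 without neurons with markers of another type and 4 without the largest library, and 1 to 4 with embryos left out (4 without control 5, and 1 without control 2 or Eed-cKO 2 to 7). Thinning and the stricter class call lower the counts per gene, and the former left 8 and the latter 7 Eed-cKO embryos in the class tests. Leaving out the largest library, and removing neurons with markers of another type within each class, were chosen after the data were seen. The other causes were not tested, and shares over all genes are not set beside these counts. Depth was lowest in the Slc32a1-only sums of Eed-cKO, where a gene can be at 0 in an embryo.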

Other observations

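Astrocyte-marked cells outside the neuron gate (226 control and 267 Eed-cKO cells, summed over embryos, with no test) also held different potassium channel counts by genotype. For Kcnd2, 145 UMIs came from control and 24 from Eed-cKO cells (164 and 25.4 CPM). Kcnj10 had 283 and 112 UMIs (320 and 118 CPM), and Kcne1l had 317 and 537 UMIs (358 and 568 CPM). Among leptomeningeal-marked cells, a type that the paper filtered out, Kcne4 was at 214 CPM in 62 control cells and 346 CPM in 197 Eed-cKO cells. Whether Sox1-Cre had acted in these cells was not tested. These genes were chosen after their values were seen.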
